A study of Mus musculus with 10 samples.

Results

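The 10 genes described here encode acute inflammatory cytokines, neutrophil-attracting chemokines and an enzyme of prostaglandin synthesis: Cxcl1, Cxcl2, Cxcl5, Il1b, Il1rn, Tnf, Il6, Il11, Ptgs2 and Osm. Their members on the array were taken by name, as every probe set annotated to 1 of these genes and to no other gene, which gave 15 probe sets of 45101 for 10 genes of 18193. They were measured in 10 colon tumours on Affymetrix arrays, 1 array per tumour. All mice had a mixed background of 129SvEv, C57BL/6 and DBA/2, and at 6 to 8 weeks of age were given 1 dose of dimethylhydrazine (44 mg/kg), from which the body makes a carcinogen. For 7 days their water then held 2% dextran sulfate sodium, which injures the colon lining. The 5 KO tumours came from 3 mice of genotype vil-Cre-Bcl9-/-/Bcl9l-/- (tumours 2 and 6 from mouse 02, tumours 9 and 11 from mouse 04, tumour 7 from mouse 99). The 5 WT tumours came from 2 wildtype mice that had the same treatment (tumours 1, 3, 12 and 13 from mouse 72, tumour 8 from mouse 82). Bcl9 and Bcl9l are co-factors of beta-catenin in Wnt-driven transcription, and the villin promoter, after which vil-Cre is named, is active in intestinal epithelium. The tissue was laser-dissected tumour, in which epithelium, stroma and immune cells were not separated, and the extraction text speaks of pooling the dissected samples of a mouse although several tumours of 1 mouse have an array each. In such samples fewer cells of a type and less RNA per cell cannot be told apart.

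The epithelial genes Epcam and Krt19, the brightest of a list of 10 colon epithelium markers, lay between 13.47 and 13.72 and between 13.11 and 13.90 log2 in the 10 tumours. The mean of the whole list varied more, from 11.75 to 12.04 in KO tumours and from 10.92 (tumour 1) and 11.35 (tumour 13) to 12.33 (tumour 3) and 12.35 (tumour 12) in WT tumours. Of 45037 probe sets tested, 1025 were higher and 933 lower in KO tumours (limma, Benjamini-Hochberg adjusted p under 0.05). With 1 mean per mouse the counts were 395 and 521. Leaving out KO tumour 6 gave 599 and 469, leaving out KO tumour 11 gave 715 and 621, and leaving out mouse 04, 02 or 72 gave 457 and 368, 724 and 539, and 345 and 750. The fit with the mouse as a random block uses 1 correlation for all probe sets (0.06), so it treats tumours of 1 mouse as only slightly alike. For a gene in which tumours of a mouse are more alike than that, its intervals are too narrow. The number of mice limits the precision of every value below.

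In an injured or inflamed colon these genes act as an alarm system. Interleukin 1 beta and TNF, released by macrophages and other cells, activate the transcription factor NF-kB in epithelium and stroma, which then make the chemokines CXCL1, CXCL2 and CXCL5 that draw neutrophils through the receptor CXCR2. The IL-1 receptor antagonist, product of Il1rn, occupies the IL-1 receptor without signalling. IL-6, IL-11 and oncostatin M signal through gp130, the product of Il6st, to STAT3, and Ptgs2 encodes COX-2, which makes the precursor of prostaglandin E2.

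Cxcl1 and Cxcl2 lie side by side in a chemokine cluster on chromosome 5, in which Cxcl5, Ppbp, Pf4, Cxcl3, Cxcl15, Cxcl1 and Cxcl2 follow each other among protein-coding genes of the RefSeq annotation of GRCm38.p6. No promoter window was found for Cxcl5 and Osm, which were not searched. Promoter windows for the other 8 of the 10 genes, 250 bases before each start in RefSeq (GRCm38.p6), numbered 11. Each was searched on both strands for the NF-kB motif, for the AP-1 motif TGANTCA and for the TCF motif CTTTGAT, whose letters differ from one another. Windows of 3 genes, shown here because Cxcl1 and Cxcl2 had the same high and low tumours while Il6 stayed at a low signal, held the NF-kB motif, which is given in capitals. Among all 32851 promoter windows of this length, 3.9% held it.
Cxcl1 (chr5:90890995-90891244, plus strand): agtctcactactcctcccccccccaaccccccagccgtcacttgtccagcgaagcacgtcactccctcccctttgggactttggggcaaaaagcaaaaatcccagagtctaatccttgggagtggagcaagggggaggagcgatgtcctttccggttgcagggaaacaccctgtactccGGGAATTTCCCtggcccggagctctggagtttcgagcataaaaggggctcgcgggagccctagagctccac
Cxcl2 (chr5:90903649-90903898, plus strand): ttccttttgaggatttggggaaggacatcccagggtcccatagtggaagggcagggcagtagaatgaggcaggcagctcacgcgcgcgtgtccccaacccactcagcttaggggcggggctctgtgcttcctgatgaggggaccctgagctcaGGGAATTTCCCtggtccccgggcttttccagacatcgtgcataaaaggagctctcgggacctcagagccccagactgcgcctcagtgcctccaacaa
Il6 (chr5:30012864-30013113, plus strand): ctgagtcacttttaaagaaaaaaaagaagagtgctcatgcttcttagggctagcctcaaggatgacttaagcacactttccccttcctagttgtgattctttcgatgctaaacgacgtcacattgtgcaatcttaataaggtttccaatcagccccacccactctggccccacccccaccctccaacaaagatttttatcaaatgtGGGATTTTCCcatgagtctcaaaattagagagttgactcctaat
The same 11 letters, which match on both strands, stood 71 to 61 bases before the start of Cxcl1 and 97 to 87 bases before that of Cxcl2. In Il6 the match of 10 letters stood 44 to 35 bases before the start. Windows of Il1rn, Il6 and Il11 held the AP-1 motif (6.75% of all windows), and windows of 0 of the 8 genes held the TCF motif (3.21% of all windows). A match is a stretch of letters and was not tested for binding.

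**Figure D1:**
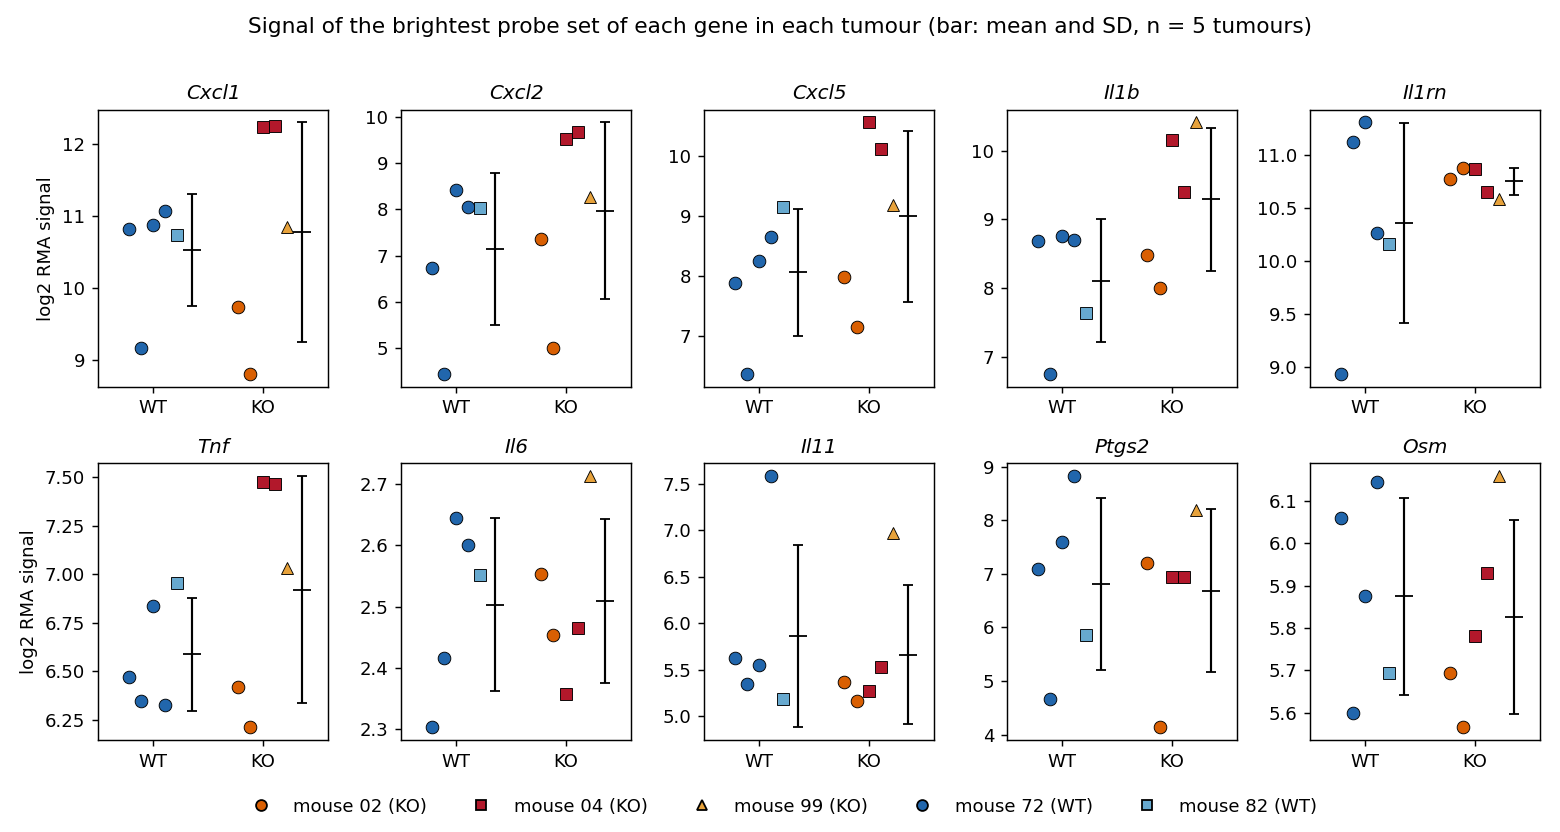
Log2 RMA signal (vertical axis) of the brightest probe set of each of the 10 genes in the WT and KO tumours, with a point per tumour, symbols for the 5 mice, and bars for the mean and SD of 5 tumours. KO and WT tumours overlap in all 10 panels, and in the panels of Cxcl1, Cxcl2, Cxcl5 and Tnf the tumours of mouse 04 are the highest.

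KO tumours were set against WT tumours to ask whether loss of the Wnt co-factors goes along with a change in the alarm genes. None of the 15 probe sets passed the threshold in either direction (limma with the mouse as a random block, adjusted over 45037 probe sets), where 4.35% of all probe sets did, 2.28% upward and 2.07% downward. By the same tool with 1 probe set per gene above a level filter, 0 members passed as well, where 7.09% of genes did, 4.16% upward and 2.93% downward. At an unadjusted p under 0.05 there was 1 probe set, that of Il1b, where 18.2% of all probe sets had such a p. KO and WT tumours overlapped in 15 of 15 probe sets, while 6.9% of all probe sets, and 7.56% of genes by their brightest, had no overlap. Of the 10 genes, each by its brightest probe set, 7 had a difference above 0 and 3 below, with a median of 0.28 log2 beside 0.00 over all genes. The adjusted p-values ranged from 0.268 to 0.999. Since the intervals given below are wide, the test does not show that the groups were alike. The level filter, 5.82 log2, is the mean signal that 40% of probe sets do not reach, and 8 of the 10 genes lay above it and Il6 and Il11 below.

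**Figure D2:**
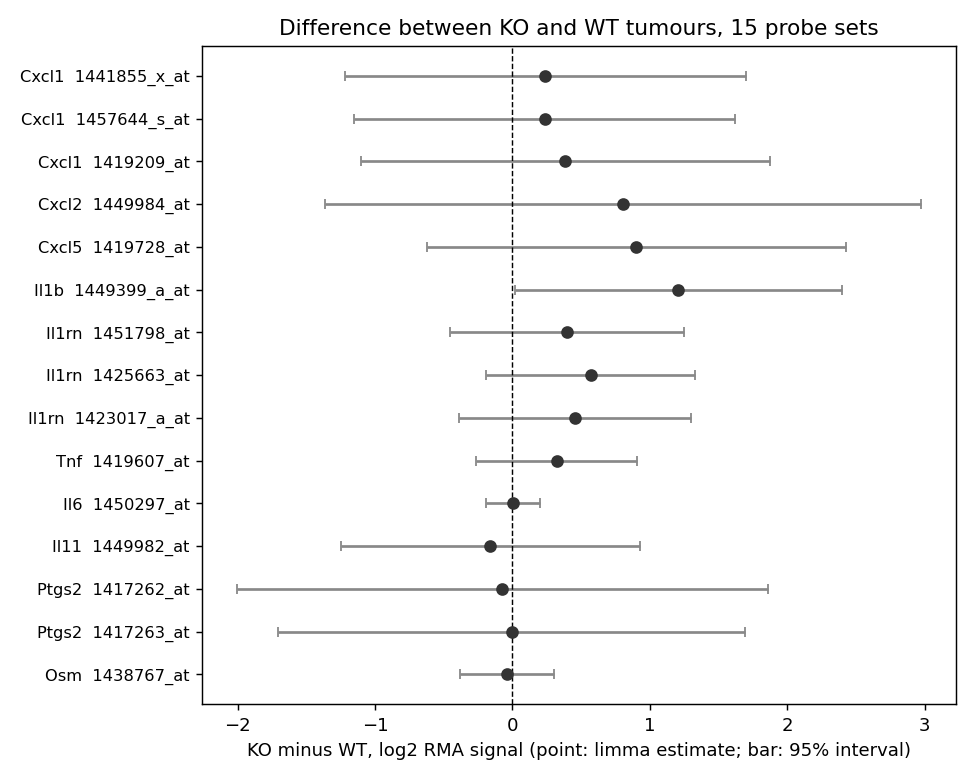
KO minus WT difference in log2 RMA signal (horizontal axis) for the 15 probe sets, with the limma estimate as a point and its 95% interval as a bar. The interval of Il1b (0.02 to 2.40) is the only one that leaves out 0, while that of Cxcl2 reaches from -1.36 to 2.98.

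Among the neutrophil chemokines, Cxcl1 stood at 9.74 and 8.80 log2 in KO tumours 2 and 6, at 12.24 and 12.25 in tumours 9 and 11, and at 10.85 in tumour 7 (probe set 1441855_x_at). In WT tumours 1, 3, 12, 13 and 8 it stood at 10.81, 9.15, 10.88, 11.07 and 10.73. Both tumours of mouse 04 were thus above every WT tumour, those of mouse 02 were below all WT tumours other than tumour 3 (tumour 6 below that one too), and WT tumour 3 was far below the other WT tumours. The difference was 0.24 ± 0.67 log2 (SE), with a 95% interval from -1.22 to 1.70 (limma, adjusted p = 0.900). The group means were 10.78 ± 1.53 in KO and 10.53 ± 0.78 in WT (SD, n = 5 tumours each). The other probe sets, 1457644_s_at and 1419209_at, gave differences of 0.23 ± 0.63 and 0.39 ± 0.68 (SE), and KO tumour 6 and WT tumour 3 were the lowest of their groups in all 3. The suffixes x and s mark probe sets that can also bind related transcripts.

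Cxcl2, whose product shares the receptor CXCR2, stood at 7.37 and 5.02 log2 in KO tumours 2 and 6, at 9.53 and 9.68 in tumours 9 and 11, and at 8.27 in tumour 7. WT tumours 1, 3, 12, 13 and 8 had 6.74, 4.45, 8.43, 8.06 and 8.03. The same tumours were high and low as for Cxcl1, with mouse 04 above all WT tumours and KO tumour 6 and WT tumour 3 lowest. The difference was 0.81 ± 0.99 log2 (SE), with an interval from -1.36 to 2.98 (limma, adjusted p = 0.737). The SD among tumours of a genotype, pooled over both, was 1.78 log2, larger than in 99.88% of all probe sets, whose median was 0.22.

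Cxcl5, a chemokine made by epithelial cells, stood at 7.98 and 7.15 log2 in KO tumours 2 and 6, at 10.57 and 10.12 in tumours 9 and 11, and at 9.18 in tumour 7. In WT tumours 1, 3, 12, 13 and 8 the values were 7.89, 6.37, 8.26, 8.66 and 9.16. Here 3 of 5 KO tumours lay above every WT tumour, tumour 7 by a narrow margin. The difference was 0.90 ± 0.70 log2 (SE), with an interval from -0.63 to 2.43 (limma, adjusted p = 0.556).

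Of the chemokines between them in the cluster, Cxcl3 had a difference of 0.84 ± 0.64 log2 and Cxcl15 of -0.35 ± 0.11 (SE, adjusted p = 0.550 and 0.110). Ppbp and Pf4, both known from platelets, had differences of -0.50 ± 0.37 and -0.41 ± 0.33 (adjusted p = 0.528 and 0.567, limma). Cxcl3, Cxcl15 and Ppbp lay below the level filter. Without WT tumour 3, Cxcl15 passed (-0.42, limma, adjusted p = 0.0402).

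The difference for the chemokines depended on which mice were included. Without mouse 04 it was -0.73 log2 for Cxcl1, -0.26 for Cxcl2 and 0.04 for Cxcl5, and without mouse 02 it was 1.23, 1.99 and 1.86. Without mouse 72, which leaves WT tumour 8 alone in its group, it was 0.05, -0.05 and -0.16. None of these passed (adjusted p from 0.158 to 0.996, limma). The means of mouse 04 and mouse 02 were 12.25 and 9.27 for Cxcl1, 9.60 and 6.19 for Cxcl2, and 10.34 and 7.57 for Cxcl5. These mice share a genotype and gave 2 tumours each, and the difference between them was not tested.

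**Figure D3:**
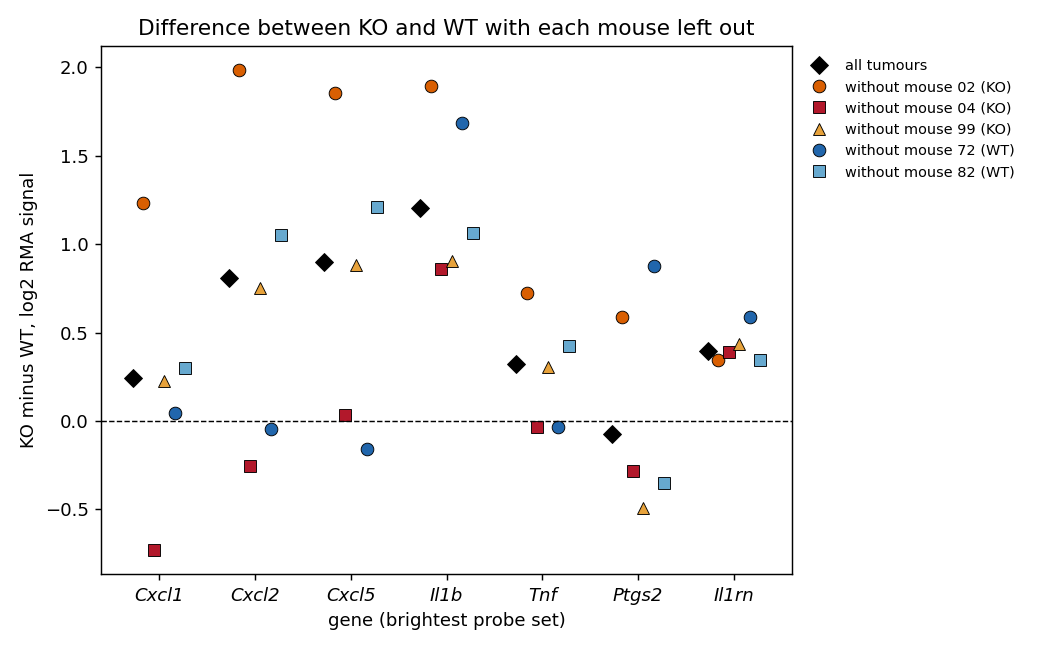
KO minus WT difference in log2 RMA signal (vertical axis) for 7 genes, with all tumours (black diamond) and with each of the 5 mice left out (coloured symbols). The differences of Cxcl1, Cxcl2, Cxcl5 and Tnf move up without mouse 02 and down without mouse 04, whereas those of Il1rn lie between 0.34 and 0.59.

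Il1b, which encodes the cytokine interleukin 1 beta, stood at 8.48 and 8.01 log2 in KO tumours 2 and 6, at 10.15 and 9.40 in tumours 9 and 11, and at 10.41 in tumour 7. The values were, for WT tumours 1, 3, 12, 13 and 8, 8.69, 6.76, 8.76, 8.71 and 7.64. The tumours of mice 04 and 99 lay above every WT tumour, and those of mouse 02 among the WT tumours. The difference was 1.21 ± 0.54 log2 (SE), a 2.31-fold higher level in KO, with an interval from 0.02 to 2.40 and an unadjusted p of 0.0475 (limma, adjusted p = 0.268). It stayed above 0 under all 25 alternatives, from 0.32 to 2.43, and passed in none (adjusted p from 0.0862 to 0.907). Within the lower range of unique sample numbers (191 to 229, 1 KO and 4 WT tumours) it was 2.43, within the upper range (254 to 258, 4 KO and 1 WT) 0.32, and with the range as a covariate 1.39. What the numbers stand for is not stated, and each range leaves 1 tumour in a group.

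Il1rn, which encodes the receptor antagonist, stood at 10.77 and 10.88 log2 in KO tumours 2 and 6, at 10.86 and 10.65 in tumours 9 and 11, and at 10.59 in tumour 7 (probe set 1451798_at). WT tumours 1, 3, 12, 13 and 8 had 8.94, 11.12, 11.30, 10.27 and 10.16. The KO tumours lay close together (SD 0.13, n = 5) and the WT tumours on both sides of them (SD 0.94, n = 5). WT tumour 3, low in the chemokines and Il1b, was among the highest here, and WT tumour 1 was the lowest in all 3 probe sets. The mean of the colon epithelium markers was likewise highest in WT tumours 12 and 3 (12.35 and 12.33), lowest in WT tumour 1 (10.92) and in between in the KO tumours. Its genes varied unequally, with the widest ranges in Krt20, Cdx2 and Cdx1 (4.01, 3.63 and 2.41 log2). Epcam and Krt18 had ranges of 0.25 and 0.30, and Krt18 was not low in WT tumour 1 (13.19). The part of these markers in the order of Il1rn was not tested. The difference was 0.40 ± 0.39 log2 (SE), with an interval from -0.46 to 1.25 (limma, adjusted p = 0.658). Probe sets 1425663_at and 1423017_a_at had differences of 0.57 ± 0.35 and 0.46 ± 0.38. Within the upper number range, where WT tumour 1 is the only WT tumour, the 3 probe sets were higher in KO by 1.86, 2.01 and 1.91 log2 and passed (adjusted p = 0.00326, 0.00559 and 0.00488). Within the lower range the differences were -0.15, -0.18 and -0.06.

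Tnf, the gene of tumour necrosis factor, stood at 6.42 and 6.21 log2 in KO tumours 2 and 6, at 7.48 and 7.47 in tumours 9 and 11, and at 7.03 in tumour 7. In WT tumours 1, 3, 12, 13 and 8 the values were 6.47, 6.35, 6.83, 6.32 and 6.96. The tumours of mice 04 and 99 were above all WT tumours, and KO tumour 6 below all of them. The difference was 0.32 ± 0.27 log2 (SE), with an interval from -0.26 to 0.91 (limma, adjusted p = 0.588), and it was -0.03 without mouse 04 and 0.73 without mouse 02.

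Ptgs2 stood at 7.21 and 4.13 log2 in KO tumours 2 and 6, at 6.94 and 6.94 in tumours 9 and 11, and at 8.20 in tumour 7 (probe set 1417262_at). The values were, for WT tumours 1, 3, 12, 13 and 8, 7.09, 4.67, 7.59, 8.82 and 5.85. Once more KO tumour 6 and WT tumour 3 were lowest, but the highest were KO tumour 7 and WT tumour 13, and mouse 04 did not stand out. The difference was -0.07 ± 0.88 log2 (SE), with an interval from -2.01 to 1.86 (limma, adjusted p = 0.979), and the second probe set, 1417263_at, gave 0.00 ± 0.77. The pooled SD within a genotype, 1.56 log2, was larger than in 99.78% of all probe sets.

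Of the gp130 cytokines among the members, Il6 and Il11 lay below the level filter and Osm just above it. Il6 stood at 2.55 and 2.45 log2 in KO tumours 2 and 6, at 2.36 and 2.47 in tumours 9 and 11, and at 2.71 in tumour 7. WT tumours 1, 3, 12, 13 and 8 had 2.30, 2.42, 2.64, 2.60 and 2.55. Only 2.13% of all probe sets had a lower mean, so these values are near the bottom of the array's scale and carry no ranking of tumours. The difference was 0.01 ± 0.09 log2 (SE, limma, adjusted p = 0.982).

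Il11, a cytokine made mainly by stromal cells, stood at 5.37 and 5.16 log2 in KO tumours 2 and 6, at 5.27 and 5.53 in tumours 9 and 11, and at 6.97 in tumour 7. In WT tumours 1, 3, 12, 13 and 8 the values were 5.62, 5.35, 5.55, 7.59 and 5.19. In each genotype 1 tumour was high, KO tumour 7 and WT tumour 13, the same tumours that were highest in Ptgs2. The other 8 tumours lay below the level filter. The difference was -0.16 ± 0.50 log2 (SE), with an interval from -1.25 to 0.93 (limma, adjusted p = 0.909).

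Osm, the gene of oncostatin M, stood at 5.69 and 5.57 log2 in KO tumours 2 and 6, at 5.78 and 5.93 in tumours 9 and 11, and at 6.16 in tumour 7. The values were, for WT tumours 1, 3, 12, 13 and 8, 6.06, 5.60, 5.88, 6.15 and 5.69. The whole range was 0.59 log2, and the difference was -0.04 ± 0.16 (SE, limma, adjusted p = 0.934). KO tumour 7 and WT tumour 13 were again the highest.

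Across the members, KO tumour 6 was the lowest KO tumour for 8 of the 10 genes, and WT tumour 3 the lowest WT tumour for 6. Both were lowest for the same 6 genes, Cxcl1, Cxcl2, Cxcl5, Il1b, Ptgs2 and Osm. How often these tumours were lowest over all genes was not counted. In a list of 26 genes of IL-1, TNF and NF-kB signalling, given below, tumour 6 was lowest for 7, tumour 3 for 12 and both for 4. Il11, below the level filter, and Osm, with a range of 0.59 log2, order the tumours only weakly. The median SD within a genotype was 0.92 log2 over the 10 genes, beside 0.22 over all probe sets.

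**Figure D4:**
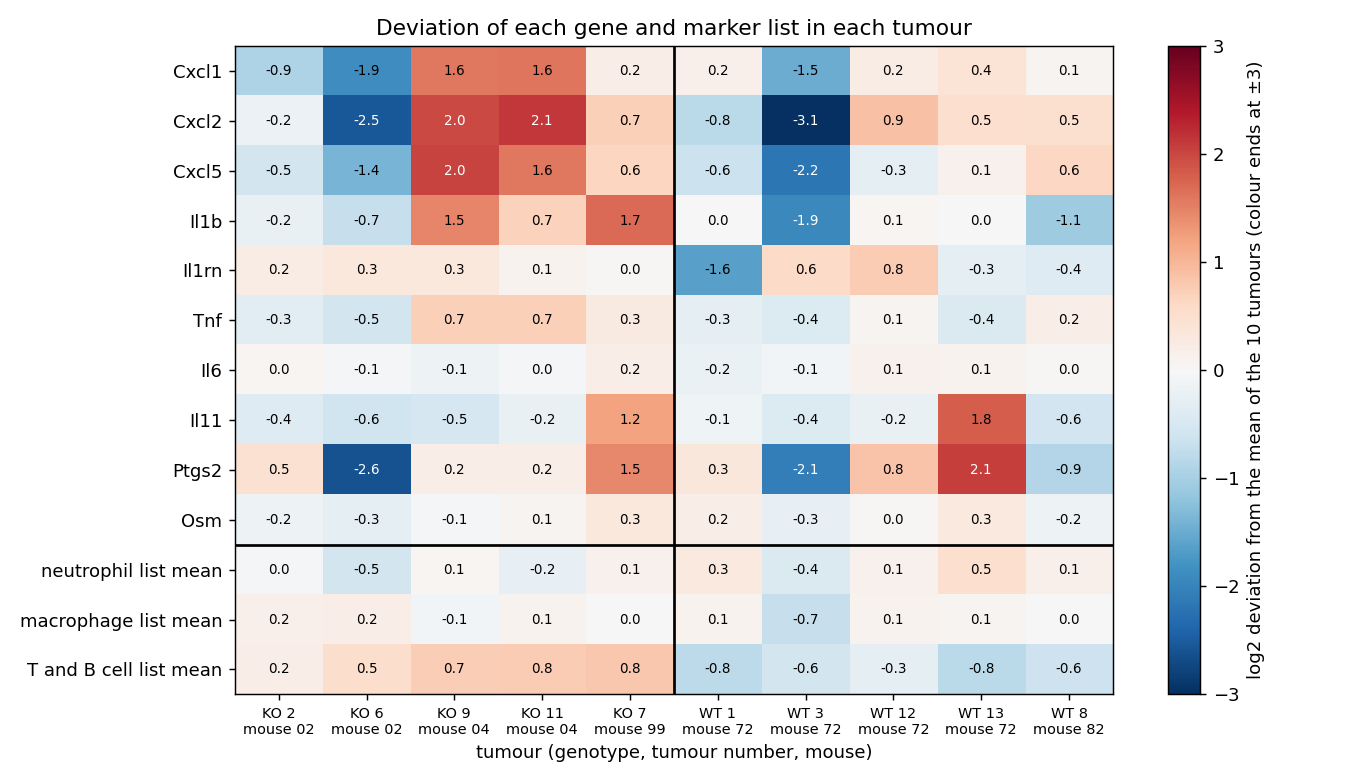
Deviation of the brightest probe set of each gene, and of the mean of 3 marker lists, from its mean over the 10 tumours in log2 (colour and printed value). KO tumour 6 and WT tumour 3 are blue in the rows of Cxcl1, Cxcl2, Cxcl5, Il1b and Ptgs2, the mouse 04 tumours are red in the chemokine rows, and the T and B cell row is above its mean in every KO tumour.

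Markers of other cells were set beside these values. A list of neutrophil markers (17 of 20 genes with a probe set of their own, 9 above the level filter) had a mean per tumour from 5.69 to 6.37 log2 in KO and from 5.80 to 6.74 in WT, and was lowest in KO tumour 6 and in WT tumour 3. The list mean was 5.99 in KO tumour 11, the highest in Cxcl1 and Cxcl2, and 6.19 in KO tumour 2, which was lower in both. In KO tumour 9, also high in these chemokines, it was 6.30. Singly, 8 of the list's 17 genes were lowest in KO tumour 6 among KO tumours and 12 in WT tumour 3 among WT tumours. For 7 genes both held. S100a9, a calcium-binding protein abundant in neutrophils, stood at 8.11 in KO tumour 6 (other KO tumours 9.19 to 9.51) and at 7.51 in WT tumour 3 (other WT tumours 8.71 to 10.68), with a difference of -0.15 ± 0.56 (SE, adjusted p = 0.929). Among all genes 2.82% were higher and 2.1% lower in KO, shares that stand beside the counts of every marker list. Of the 17 genes, 0 rose and 1 fell. This was Cd177, a neutrophil surface protein also known from colon epithelium, which was 5.77-fold lower in KO (7.70 ± 1.24 against 10.25 ± 0.76 log2, SD, n = 5 tumours each, limma, adjusted p = 0.0348) and did not pass with 1 mean per mouse (0.0503), without mouse 04 or 72, or without KO tumour 9 or 11 or WT tumour 1 or 13 (adjusted p up to 0.470). Elane, Mpo, Camp, Ngp and Mmp8, granule genes of neutrophils named after their values were seen, had means under the level filter. Among the KO tumours Cd177 went the other way and was highest in tumour 6 (9.28). Elane was highest there too (3.57), but only 10.14% of probe sets had a lower mean, so its order of tumours carries little. Csf3r, the G-CSF receptor, hardly varied among WT tumours (5.59 to 5.67). Every KO tumour lay above these, tumour 11 only just. The difference of 0.67 ± 0.21 log2 did not pass (SE, limma, adjusted p = 0.0964). Mmp9 and Hp, named after their values were seen, went the other way and did not pass either. Their differences were -1.52 ± 0.475 and -1.715 ± 0.54 log2 (SE, limma, adjusted p = 0.105 and 0.106). In Mmp9 every KO tumour lay below every WT tumour, by a narrow margin. Of the 17 genes, 7 had a difference above 0, and the median was -0.15 log2. The part of neutrophils in the order of the tumours was not tested.

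A macrophage and monocyte list (14 of 15 genes) had means from 7.77 to 8.03 log2 in KO and from 7.14 to 7.95 in WT, with WT tumour 3 lowest. Its brightest genes, Lyz2 and C1qb, did not pass, and 1 of 14 rose: Cd14, the co-receptor for bacterial lipopolysaccharide, was 3.76-fold higher in KO (9.17 ± 0.14 against 7.28 ± 0.58, SD, n = 5 tumours each, adjusted p = 0.00188). It passed under 24 of 25 alternatives, the exception being the lower number range alone. T and B cell markers differed between the genotypes, with 6 of 9 higher in KO, among them Cd8a, Cd79a and Cd3g (differences of 2.70, 1.81 and 1.63 log2, limma, adjusted p up to 0.00323), and list means from 6.06 to 6.67 in KO and from 5.05 to 5.58 in WT. Cd79a did not pass within the lower range (0.0685), within the upper range (0.0960) or without mouse 72 (0.0791), and Cd3g not within the lower or the upper range (adjusted p = 0.234 and 0.0549, limma). Mast cell, endothelial and epithelial lists had 0 of 9, 0 of 7 and 0 of 10 past the threshold (limma), with 4, 1 and 2 at an unadjusted p under 0.05. WT tumour 3 had the lowest mean of the WT tumours in the fibroblast list (8.67, the others 9.21 to 9.82) and in the endothelial list (6.46, the others 7.45 to 7.76) too. It was the lowest WT tumour for 8 of 11 fibroblast, 7 of 7 endothelial, 11 of 14 macrophage and 0 of 10 epithelial genes. KO tumour 6 was the lowest KO tumour for 1 of 11, 2 of 7, 0 of 14 and 0 of 10 of them. The part of these cells in the low member values of the tumours was not tested. Of 11 fibroblast markers 1, Fn1, fell (-1.49 ± 0.31, SE, adjusted p = 0.0200), and its call was lost with 1 mean per mouse, without KO tumour 6 and without mouse 04 or 72.

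Receptors of these cytokines came next in the pathway. Of 16, 14 had a probe set of their own, 1 rose, 0 fell and 13 did not pass, and the median difference was 0.06 log2. Among all genes 4.92% passed, 2.82% upward and 2.1% downward. The rise was in Tnfrsf1a, the TNF receptor of most cells, which stood from 9.15 to 9.76 log2 in KO and from 8.62 to 9.16 in WT tumours, with KO tumour 6 just under WT tumour 3. It was 1.58-fold higher (0.66 ± 0.15 log2, SE, limma, adjusted p = 0.0363). The call was lost under 13 of 25 alternatives, among them 1 mean per mouse (adjusted p = 0.180), mouse 72 left out (0.400), and KO tumour 7, 9 or 11 or WT tumour 1, 12 or 13 left out (0.0549 to 0.0824). Tnfrsf1b, the TNF receptor of immune cells, had a fitted difference of 0.77 ± 0.21 log2 (SE) and did not pass (limma, adjusted p = 0.0714). Its groups did not overlap, though KO tumour 2 (10.47) and WT tumour 12 (10.44) were close. It passed without KO tumour 2 (0.0318) or without mouse 02 (0.00192).

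Il1r1, the signalling IL-1 receptor, its partner Il1rap and the shared gp130 gene Il6st had lower means in KO and did not pass. Their differences were -0.62 ± 0.22, -0.57 ± 0.15 and -0.70 ± 0.19 log2 (SE, limma, adjusted p = 0.162, 0.0600 and 0.0677). Il1r1 passed without KO tumour 2 (0.0304), Il1rap without WT tumour 3 (0.0143), with 1 probe set per gene above the level filter (0.0445), without the mouse block (0.0426), with the range covariate (0.0393) and with array weights (0.0314), and Il6st without KO tumour 2 (0.0487) or WT tumour 8 (0.0353), without the mouse block (0.0448), with array weights (0.0319) and within the upper range (0.0403). Cxcr2, the chemokine receptor of neutrophils, had a mean below the level filter (5.70 log2). It had a difference of 0.63 ± 0.29 (SE, limma, adjusted p = 0.275) and passed without mouse 02 (0.0452). Of the 14 receptors, 7 had a difference above 0, among them Osmr (0.335 ± 0.25 log2), Il1r2 (0.28 ± 0.38) and Ptger4 (0.34 ± 0.145, SE). These 3 did not pass (limma, adjusted p = 0.541, 0.766 and 0.239). The receptors other than Tnfrsf1a were named after their values were seen.

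In the list of IL-1, TNF and NF-kB signalling, 3 of 26 genes rose, 0 fell and 23 did not pass, with a median of 0.28 log2. Casp1, the protease that matures interleukin 1 beta, was 2.82-fold higher in KO. It stood at 10.57, 11.05, 11.34, 11.12 and 11.56 log2 in KO tumours 2, 6, 9, 11 and 7, and at 8.65, 9.93, 10.17, 9.40 and 9.97 in WT tumours 1, 3, 12, 13 and 8. Every KO tumour was above every WT tumour, and the fitted difference was 1.50 ± 0.29 log2 (SE, limma, adjusted p = 0.0164). The call was lost without KO tumour 6 (0.0504), without mouse 04 (0.0845), without mouse 72 (0.143) and within the lower number range (0.119).

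Nfkbiz, an NF-kB co-factor that IL-1 induces, was 2.32-fold higher, at 10.65 to 11.80 log2 in KO and 9.56 to 10.59 in WT tumours (1.21 ± 0.25, SE, adjusted p = 0.0202). Myd88, the adaptor of IL-1 and Toll-like receptors, was 1.95-fold higher, at 7.93 to 8.59 in KO and 6.69 to 7.90 in WT tumours (0.96 ± 0.23, SE, limma, adjusted p = 0.0410). The groups did not overlap in either gene, though the nearest tumours of both genotypes were close. Nfkbiz did not pass without KO tumour 6 (0.0558), without mouse 04 or 72, or with 1 mean per mouse (0.0835). Myd88 passed under 8 of 25 alternatives and not with 1 mean per mouse (0.0795), nor without any single KO tumour, nor without WT tumour 1, 3, 8 or 13 (adjusted p up to 0.106).

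**Figure D5:**
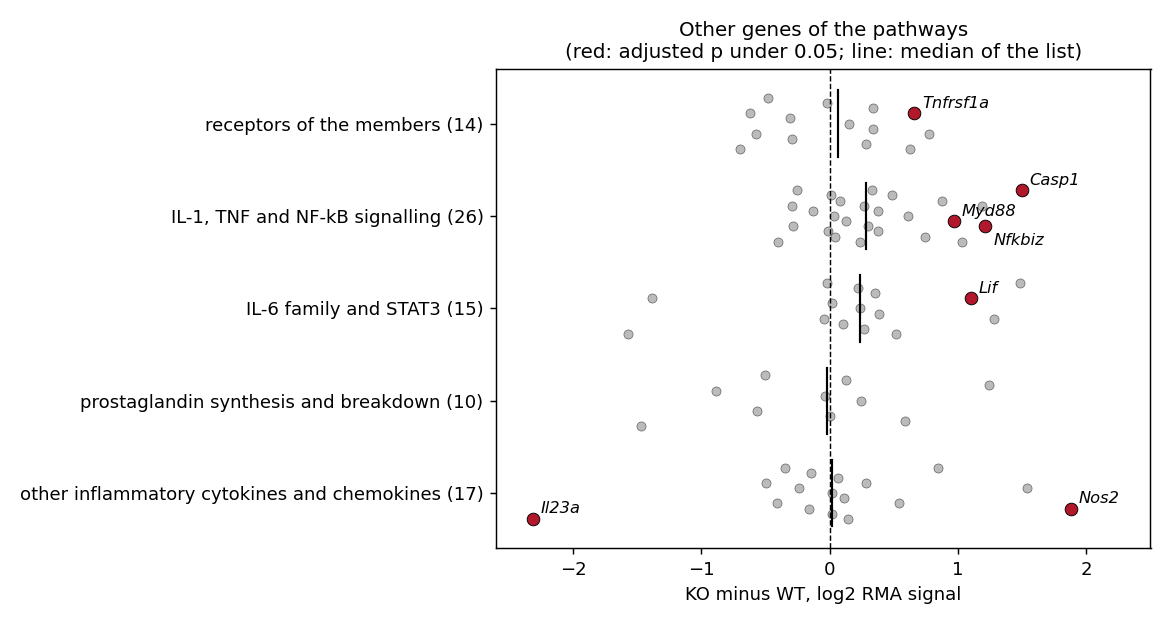
KO minus WT difference in log2 RMA signal (horizontal axis) for the genes of 5 lists around the 10 genes (vertical axis, number of genes in parentheses), with a point per gene, red where the adjusted p was under 0.05, and a line at the list's median. The 6 genes that rose and Il23a, which fell, are named.

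Of 15 genes of the IL-6 family and STAT3 list, 1 rose and 0 fell, with a median of 0.23 log2. This was Lif, another gp130 cytokine, which stood at 7.93, 7.01, 8.46, 8.16 and 7.32 log2 in KO tumours 2, 6, 9, 11 and 7 and from 6.32 to 6.83 in WT tumours. The groups did not overlap, and the difference was 1.10 ± 0.26 (SE, limma, 2.15-fold, adjusted p = 0.0397). It did not pass with 1 mean per mouse (0.211) or with the number range as a covariate (0.115). Nor did it when KO tumour 2, 9 or 11 or any single WT tumour was left out (0.0508 to 0.0865). In this list 11 of 15 genes had a difference above 0. Lcn2 and Saa3, named after their values were seen, had -1.575 ± 0.78 and -1.39 ± 0.59 log2 (SE). They did not pass (limma, adjusted p = 0.317 and 0.235).

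Of 17 genes in a list of other inflammatory cytokines and chemokines, 1 rose and 1 fell, with a median of 0.02 log2. The list includes Nos2, an enzyme gene and the 1 that rose, and 11 of its genes lay below the level filter. Il23a, which encodes the IL-23 subunit p19, was 4.98-fold lower in KO. It stood from 4.34 log2 in KO tumour 2 to 5.18 in KO tumour 7 and at 7.83, 6.57, 7.05, 7.65 and 6.56 in WT tumours 1, 3, 12, 13 and 8. The groups were clearly apart, with a difference of -2.31 ± 0.29 (SE, limma, adjusted p = 0.00142), and the call held under 24 of 25 alternatives, the exception being the lower number range alone. The KO values lay below the level filter, so the fold is not exact.

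Nos2, the inducible nitric oxide synthase, was 3.69-fold higher at 5.88, 6.69, 8.65, 8.07 and 8.33 log2 in KO tumours 2, 6, 9, 11 and 7 against 5.37 to 6.02 in WT tumours (1.88 ± 0.48, SE, limma, adjusted p = 0.0497). As in the chemokines, mouse 02 was low and mouse 04 high among the KO tumours, with tumour 7 high as well, and tumour 2 lay among the WT tumours. The call passed in 7 of 25 alternatives and was lost whenever KO tumour 6, 7, 9 or 11 or any single WT tumour was left out (0.0568 to 0.105).

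Around Ptgs2, 0 of 10 genes of prostaglandin synthesis and breakdown passed, with 3 at an unadjusted p under 0.05 (limma) and a median of -0.02 log2. The smallest p-values belonged to Pla2g4a, the phospholipase that frees arachidonic acid, with a difference of 1.24 ± 0.32 (SE, adjusted p = 0.0552), and to Ptgds, prostaglandin D2 synthase, with -1.47 ± 0.46 (adjusted p = 0.109). Both passed without WT tumour 12 (0.0199 and 0.0373, limma). With 1 probe set per gene above the level filter, Pla2g4a passed (0.0495), and with 1 mean per mouse Ptgds did (0.0281). The mean of Ptgds (5.21 log2) lay below the level filter. Over the 82 measured genes of the 5 lists together, 6 rose, 1 fell and 75 did not pass, beside 2.82% higher and 2.1% lower among all genes.

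Genes whose pattern over the 10 tumours was most like that of a member were found by Pearson's r among 12242 other genes above the level filter. Given as a description, since tumours of a mouse are not independent, these were Ppp1r15a, Rhoc and Trim10 for Cxcl1 (r from 0.90 to 0.93), Tnfrsf11b, St3gal1 and Itgb3 for Cxcl2 (0.91 to 0.92), and Tnfrsf11b, St3gal1 and Rgs1 for Cxcl5 (0.93 to 0.94). Cxcl2 and Cxcl5 had their first 2 in common. For Il1b they were Trim12c, 1110038F14Rik and Mtf1 (0.90 to 0.92). For Il1rn they were Tcim, Prag1 and Tspan8 (0.97), and r fell to between 0.88 and 0.91 without WT tumour 1. For Tnf they were Plekhs1, Tnfaip3 and Unc119 (0.92 to 0.94), of which Tnfaip3 encodes an inhibitor of NF-kB induced by TNF. Ptgs2 was most like Plau, Lrrc8c and Clec7a (0.86 to 0.91), and Osm most like Ncstn, Ccdc66 and Tmie (0.86 to 0.90). None of these genes passed the test between KO and WT, with differences from -0.18 to 0.74 log2 (limma, adjusted p from 0.0644 to 0.979).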

How the data were processed

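Total RNA of laser-dissected colon tumours (30 ng, amplified) was measured on 10 arrays. The deposited values are log2 signals that the authors made with RMA, per the submitters' processing notes, which give no version. The genome build is not given in the sources used here. RMA shares probe effects and quantiles across arrays (array medians 6.43 to 6.50), so a shift common to all probe sets of a tumour is not visible. Gene names came from the platform annotation, updated through Entrez identifiers with RefSeq (GRCm38.p6): 34945 probe sets had 1 symbol, 932 several and 9160 none.

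Groups and mice were taken from the sample labels. Differences were fitted with limma 3.58.1 (R 4.3.3, statmod 1.5.0) over 45037 probe sets, leaving out 64 control probe sets, with a variance trend and the mouse as a random block (consensus correlation 0.06). P-values were adjusted by Benjamini-Hochberg with a threshold of 0.05, and intervals are at 95%. They measure the spread between these tumours only. The procedure was tested on simulated data. Other genes are given by their brightest probe set. The level filter is the 40th percentile of all probe sets.

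Members and gene lists were chosen with earlier results of these data known. Named were all members, pathway genes past the threshold (or the 2 with the smallest p), the brightest or passing markers of lists that a result turns on, and the 3 genes most like each member. Alternatives changed the trend, level filter, mouse block, unit of replication, number range, 3' to 5' signal, centring and array weights, and left out each tumour and each mouse.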

Additional observations from a re-analysis of the deposited data

Results flagged for a closer look

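In a group of 5 tumours, 1 tumour was called far from the others where its gap to the nearest exceeded 0.71 of the group's range, which chance gives in about 1 of 20 groups. Of 86 groups examined, 10 met this. The groups included genes named after their values were seen, among them Reg3b and Reg3g, and several probe sets of 1 gene. The count can therefore not be set beside the rate of 1 of 20.

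WT tumour 3 lay below the other WT tumours in all 3 probe sets of Cxcl1, at 9.15 log2 (1441855_x_at), 9.09 (1457644_s_at) and 6.72 (1419209_at), where the next tumours stood at 10.73, 10.67 and 8.11. These probe sets measure 1 gene and are not independent. KO tumour 6 had the lowest S100a9 of the KO tumours, at 8.11 beside 9.19 in the next.

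Il11 stood at 6.97 in KO tumour 7 and at 7.59 in WT tumour 13, where the next tumours of their groups had 5.53 and 5.62. Reg3b stood at 12.47 in KO tumour 2 and at 9.01 in WT tumour 13, beside 6.47 and 4.62 in the next. Reg3g stood at 12.41 in KO tumour 2 and at 10.50 in WT tumour 13, beside 6.56 and 4.78.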

How the results depend on the processing

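No paired analysis was possible because KO and WT tumours share no replicate numbers and no mouse. Over 25 alternatives, 61 of 368 member values changed sign against the reported value, and 3 passed, all of Il1rn within the upper number range. Il1b kept its sign in all of them. In the results below the cause was not tested.

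Without mouse 04 the differences were -0.73, -0.66 and -0.64 log2 for Cxcl1 (1441855_x_at, 1457644_s_at, 1419209_at), -0.26 for Cxcl2 and -0.034 for Tnf. Without mouse 72 they were -0.048 for Cxcl2, -0.16 for Cxcl5, -0.034 for Tnf, -0.037 for Il6, 0.51 for Il11, 0.88 and 0.48 for Ptgs2, 0.14 for Osm and 0.075 for Ppbp. Without mouse 02 they were 0.10 for Il11, 0.59 and 0.64 for Ptgs2, 0.089 for Osm and 0.086 for S100a9. Il6 had -0.046 without mouse 99 and -0.033 with array weights. With 1 mean per mouse they were 0.27 for Il11, 0.49 and 0.37 for Ptgs2 and 0.075 for Osm. With the number range as a covariate they were 0.42, 0.38, 0.39 and 0.012 for the same probe sets. Within the lower range they were -0.15, -0.18 and -0.061 for Il1rn, 1.03 for Il11, 1.43 and 1.38 for Ptgs2, 0.33 for Osm, 0.41 for S100a9, -1.18 for Reg3b and -0.96 for Reg3g. Within the upper range Cxcl1 had -0.054 and -0.15 (1441855_x_at, 1457644_s_at). With the 3' to 5' covariate Ptgs2 had 0.32 and 0.30 and S100a9 0.17, and with centred arrays Ptgs2 1417263_at had 0.006.

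With 1 tumour left out, Cxcl1 ranged from -0.11 to 0.68 (1441855_x_at) and from -0.11 to 0.65 (1457644_s_at), Il6 from -0.046 to 0.043, Il11 from -0.52 to 0.25, Ptgs2 from -0.57 to 0.59 and from -0.51 to 0.53, Osm from -0.13 to 0.029, S100a9 from -0.58 to 0.19 and Reg3b from -0.17 to 2.17.

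Of all probe sets, 1025 were higher and 933 lower in KO, against 509 and 359 with 1 probe set per gene above the level filter, 395 and 521 with 1 mean per mouse, 45 and 40 within the lower range, and 457 and 368 without mouse 04. The higher count was 345 without mouse 72, and the lower count 564 with the 3' to 5' covariate and 539 without mouse 02. With 1 tumour left out they ranged from 599 to 1090 and from 469 to 1098. Of the pathway genes 6 were higher, against 1 with 1 mean per mouse, within the lower range, with the 3' to 5' covariate or without mouse 72, 3 within the upper range or without mouse 99, 0 without mouse 04, 10 without mouse 02, and 2 to 7 with 1 tumour left out. The lower count of 1 became 2 with the level filter, with 1 mean per mouse or without mouse 82, 3 without the mouse block, with the range covariate, within the upper range or with array weights, 0 within the lower range, and 1 to 4 with 1 tumour left out.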

Other observations

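Reg3b and Reg3g, antimicrobial lectins of the gut epithelium that belong to the list of the IL-6 family and STAT3, were high in 1 tumour of each genotype, and were named after their values were seen. Outside KO tumour 2 and WT tumour 13, Reg3b lay between 4.20 and 6.47 log2 and Reg3g between 4.30 and 6.56. KO tumour 2 stood at 5.37 for Il11, where KO tumour 7 had 6.97, and at 7.21 for Ptgs2, second to KO tumour 7 (8.20) among KO tumours. WT tumour 13, in contrast, was the highest WT tumour for Il11, Ptgs2, Osm and the brightest probe set of Cxcl1. In Cxcl1 1419209_at WT tumour 12 was higher (8.62 beside 8.59). The genotype differences of Reg3b and Reg3g, 1.28 ± 1.56 and 1.48 ± 1.58 log2 (SE), did not pass (limma, adjusted p = 0.736 and 0.691).

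Ccl20, a chemokine of the inflamed epithelium, also named after its values were seen, stood at 8.23 and 9.43 log2 in KO tumours 9 and 11 of mouse 04, and from 5.05 to 6.59 in the other 8 tumours. As in Cxcl1 and Cxcl2, mouse 04 was highest. Its difference of 1.53 ± 0.70 (SE) did not pass (limma, adjusted p = 0.278) and passed without mouse 02 (2.59, adjusted p = 0.0368).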
